A study of Mus musculus with 8 samples.

Results

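To determine how genes that fold, quality-control and degrade proteins of the endoplasmic reticulum (ER) responded to dietary alcohol, the hepatic RNA levels of 40 such genes were compared between mice fed alcohol and mice fed the control diet. The genes were taken by symbol from a list that holds 6 sensors and transcription factors, 13 chaperones and cochaperones, 7 disulfide enzymes, 10 genes of ER-associated degradation (ERAD) and 4 genes of protein translocation. A probe-set that carries no other symbol was present for 36 of these 40 genes, and for 14860 genes in the whole table. Livers of 8 wild type male C57Bl6J mice were profiled on Affymetrix Mouse Exon arrays, 1 a mouse, after 6 weeks of Lieber-DeCarli liquid diet begun at an age of 6 weeks. The alcohol group (n = 4) received ethanol at 2.06% for 3 days, at 4.18% for 4 days and at 6.2% for 5 weeks per the labels, and ethanol finally supplied 35% of the calories. The control group (n = 4) was pair-fed a diet of the same calories in which maltose and dextrin replaced ethanol. RNA came from whole liver, so that in all results below fewer cells of a type and less RNA per cell cannot be told apart.

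Proteins destined for secretion enter the ER through the Sec61 channel, are glycosylated, and fold with the help of lumenal chaperones and of enzymes that form disulfide bonds. When unfolded proteins accumulate, the membrane sensors IRE1, PERK and ATF6 start the unfolded protein response (UPR): IRE1 splices the *Xbp1* mRNA, ATF6 is cut to release a transcription factor, and PERK phosphorylates the initiation factor eIF2 and lowers translation. XBP1 and ATF6 then raise transcription of chaperones and of ERAD genes, whose products draw misfolded proteins back to the cytosol for the proteasome. Hepatocytes secrete most plasma proteins and hold an extensive ER.

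Of the 34 members that passed a filter on low values, 10 were upregulated in mice fed alcohol, and none was downregulated. They were the sensor *Ern1*, the chaperones and cochaperones *Hyou1*, *Canx*, *Sil1* and *Uggt1*, the ERAD genes *Edem1*, *Edem2*, *Derl1* and *Os9*, and the channel subunit *Sec61a1*. Each change was small, between 0.30 and 0.60 on the log2 scale. The major chaperone *Hspa5* and the transcription factor *Xbp1* did not pass the test, with log2 changes of 0.35 and -0.096.

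A gene was called here when its adjusted p was under 0.05 in limma's linear model of the 2 diets, with the Benjamini-Hochberg adjustment over all probe-sets tested. All values below are log2 values after robust multi-array averaging (RMA), which subtracts background, normalizes probe intensities between arrays and draws the probes for a gene together into 1 value, and all changes are alcohol minus control. The share of all probe-sets tested that was called higher was 10.2%, and the share called lower was 5.98%. The members were chosen with earlier results of these data known, so the shares below describe them and are no test of the list. Among the members 10 of 34 were higher and 0 lower, and 15 of 34 had an unadjusted p under 0.05, all of them higher, against 20.5% of all probe-sets tested that were higher at that level. None of the 34 passed the study's own thresholds, a P of at most 0.0001 with at least 1.5-fold, which 1.76% of all probe-sets tested passed in either direction. The median change of the members was 0.26, against 0.053 over all probe-sets tested. Of the 34 changes 30 lay above 0, against 60.0% of all probe-sets tested. After the scalings described below, quantile normalization and equal array medians, 28 of 34 and 27 of 34 did, against 51.6% and 48.6%. The alcohol and control mice did not overlap in 14 members, with alcohol higher, against 15.5% of all probe-sets tested. No member had all alcohol mice below all control mice, against 8.14% of all probe-sets tested. With 4 mice on each diet, values that do not overlap give an exact two-sided permutation p of 0.0286, the smallest this design allows. With the table quantile normalized again, 7 members were called higher, against 8.62% of all probe-sets tested, and with the array medians set equal 5 were, against 6.99%. Neither scaling called a member lower. Leaving out 1 mouse gave 3 to 9 members higher, with 5 without WA-833, 5 without WA-836, 3 without WC-824, 4 without WC-834 and 6 without WC-840. In the same 5 settings 10.4%, 7.85%, 5.70%, 5.89% and 6.14% of all probe-sets tested were higher. No left-out mouse moved the change of a called member by more than 1.5 times.

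Genes were called in 4 of the 5 roles, while 10.2% of all probe-sets tested were called higher. Of the tested members, 1 of 5 sensors and transcription factors, 4 of 12 chaperones and cochaperones, 0 of 5 disulfide enzymes, 4 of 8 ERAD genes and 1 of 4 translocation genes were higher. Their median changes were 0.0011, 0.30, 0.22, 0.30 and 0.28 in the same order, and the differences between the roles were not tested. The median of the sensors was -0.017 with quantile normalization and -0.059 with median centring, while those of the other roles stayed above 0.16 under both. With median centring no sensor or transcription factor was called.

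**Figure D1:**
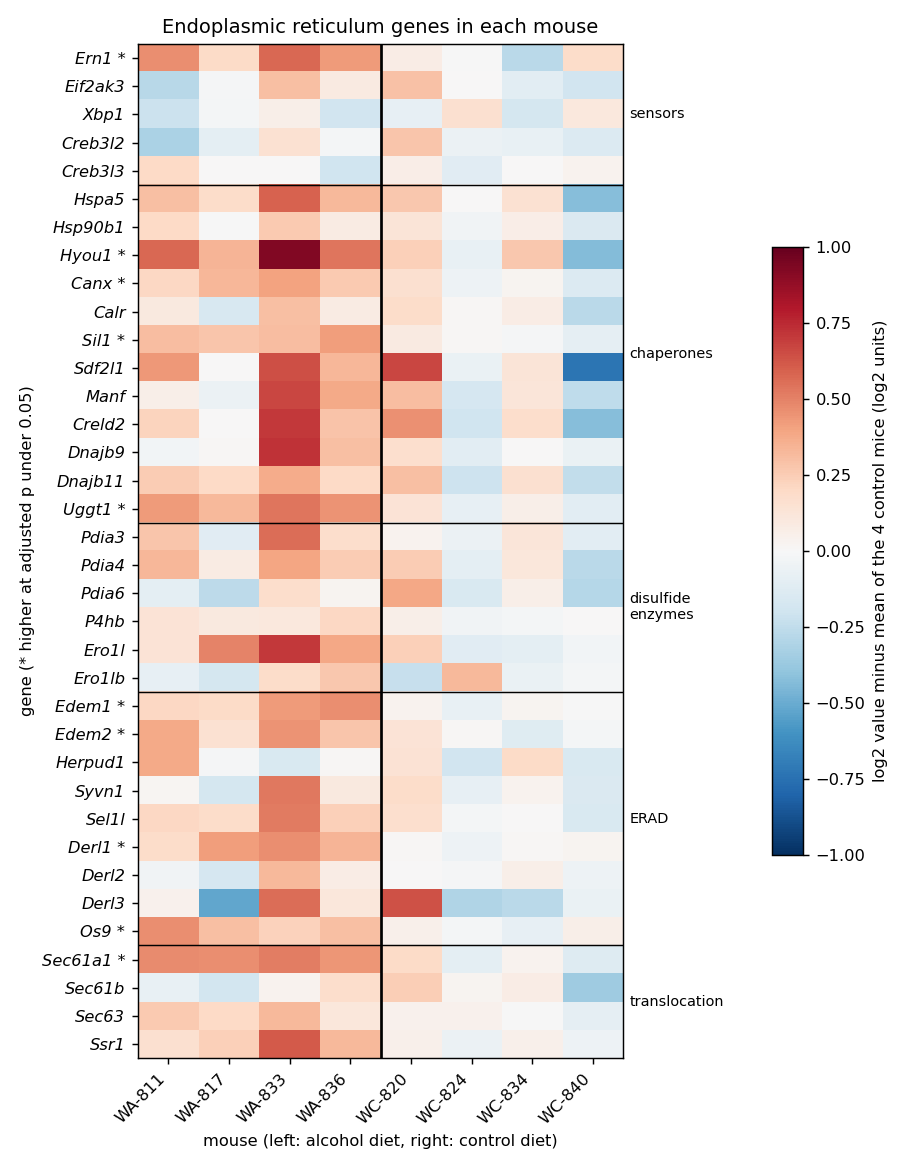
Log2 value of each measured gene in each mouse minus the mean of the 4 control mice, as colour (red above, blue below), with alcohol mice left and control mice right of the thick line and genes grouped by role. The column of WA-833 is the reddest, WC-840 is blue for most chaperones, and the 10 genes marked with an asterisk were higher at an adjusted p under 0.05.

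**Figure D2:**
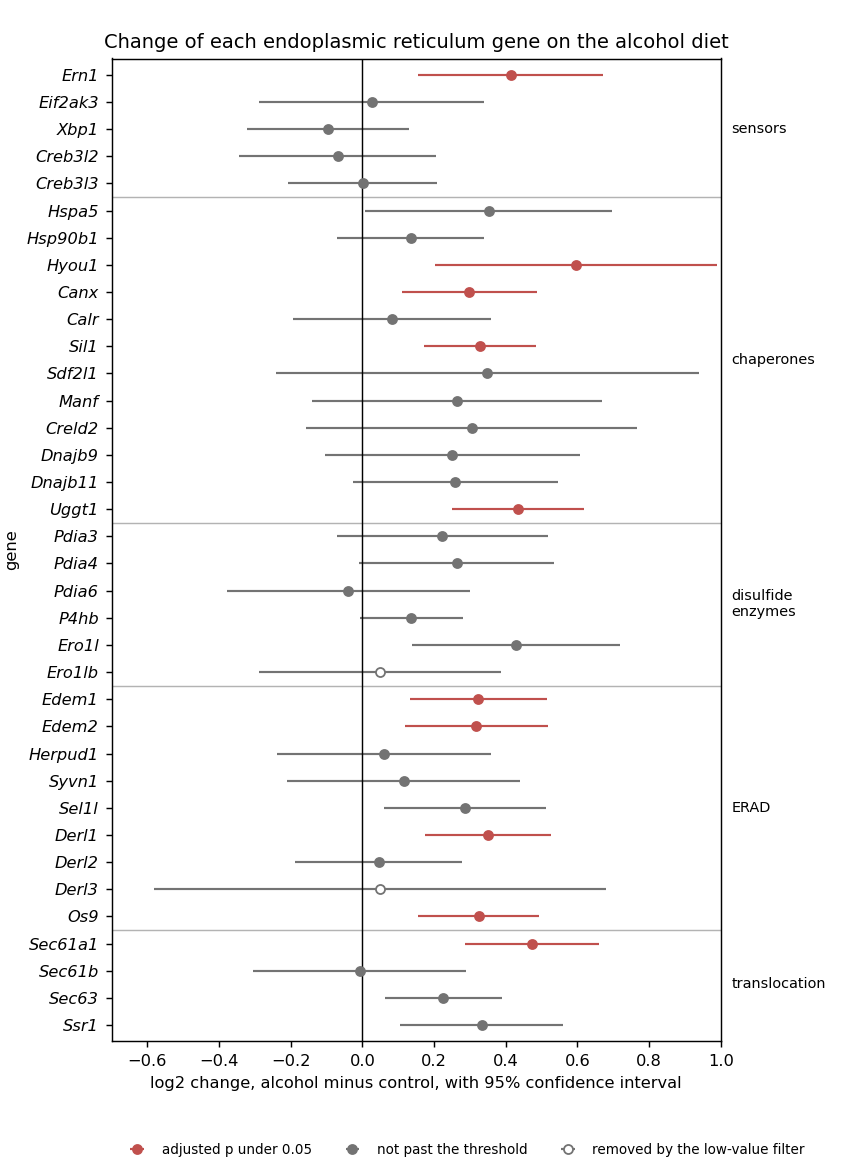
Log2 change of each measured gene, alcohol minus control, with its 95% confidence interval from limma, grouped by role. All red points (adjusted p under 0.05) lie right of 0, and the sensors other than *Ern1* lie close to 0.

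Sequence upstream of the genes was examined for the elements through which the UPR acts on transcription. The ER stress response element (ERSE) is a CCAAT box and, a fixed distance from it, CCACG, which ATF6 and XBP1 read together with the factor NF-Y. It was searched as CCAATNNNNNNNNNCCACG, the related ERSE-II as ATTGG and CCACG with 1 base of any kind between them and the UPR element as TGACGTGG, on both strands of RefSeq promoter windows of the mouse build GRCm38.p6, from 250 bases before to 50 bases after the start of each transcript. A window was given for 34 of the 40 members. The ERSE was found in 10 of these 34 genes (29.4%), against 37 of all 27025 genes with a window, members included. By windows it was 39 of 32851 (0.119%). The list holds classical targets of this element, so its high share follows from the choice of genes and says nothing about the diets. The matches are shown with the CCAAT and CCACG parts in capitals, in the 5′ to 3′ direction of the element, because this is the element through which ATF6 and XBP1 are known to act. Positions are counted from the first base of the transcript, with the base before it at -1.
*Hspa5* (chr2:34772025-34772043, + orientation to the gene, bases -65 to -47): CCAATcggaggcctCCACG
*Hsp90b1* (chr10:86705638-86705656, + orientation to the gene, bases -212 to -194): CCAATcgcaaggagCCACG
*Hsp90b1* (chr10:86705533-86705551, - orientation to the gene, bases -107 to -89): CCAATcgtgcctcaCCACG
*Canx* (chr11:50325800-50325818, + orientation to the gene, bases -145 to -127): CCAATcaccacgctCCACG
*Calr* (chr8:84847075-84847093, - orientation to the gene, bases -162 to -144): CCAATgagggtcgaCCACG
*Creld2* (chr15:88819520-88819538, - orientation to the gene, bases -126 to -108): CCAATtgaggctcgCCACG
*Dnajc3* (chr14:118937827-118937845, + orientation to the gene, bases -105 to -87): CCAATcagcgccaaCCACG
*Pdia6* (chr12:17266491-17266509, + orientation to the gene, bases -98 to -80): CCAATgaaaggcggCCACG
*Ero1lb* (chr13:12565682-12565700, - orientation to the gene, bases -201 to -183): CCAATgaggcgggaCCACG
*Syvn1* (chr19:6046532-6046550, + orientation to the gene, bases -44 to -26): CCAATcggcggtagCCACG
*Derl3* (chr10:75893242-75893260, - orientation to the gene, bases -156 to -138): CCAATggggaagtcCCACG

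*Hsp90b1* held 2 such elements and each of the other genes 1, and the bases between the conserved parts differed among all 11. The ERSE-II was found in 2 of 34 genes (5.88%), in *Dnajb11* and in *Herpud1*, against 12 of all 27025 genes (0.0365% of all windows). The same limit holds for this share.
*Dnajb11* (chr16:22857852-22857862, + orientation to the gene, bases 7 to 17): ATTGGcCCACG
*Herpud1* (chr8:94386377-94386387, + orientation to the gene, bases -52 to -42): ATTGGgCCACG

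The UPR element was found in 0 of the 34 genes and in 193 of all 27025 genes (0.676% of all windows). This says only that these letters were not in the windows of the members. Of the 10 genes called higher 6 had a window, and only that of *Canx* held an ERSE. Of the 24 tested genes that were not called 23 had a window, and 6 of those held an ERSE, among them *Hspa5*, *Hsp90b1*, *Calr* and *Pdia6*. The called and uncalled members were not compared further, since 4 called genes had no window. The 250 bases before the start are given for 5 genes, with and without an element and called or not, with ERSE matches in capitals. *Hspa5* and *Hsp90b1*, the classical targets of the element, were not called, the second *Hsp90b1* element is read on the opposite strand, *Canx* was the called gene with an element, *Pdia6* had an element and a change near 0, and *Uggt1* rose without a match.
*Hspa5* (chr2:34771840-34772089, + strand): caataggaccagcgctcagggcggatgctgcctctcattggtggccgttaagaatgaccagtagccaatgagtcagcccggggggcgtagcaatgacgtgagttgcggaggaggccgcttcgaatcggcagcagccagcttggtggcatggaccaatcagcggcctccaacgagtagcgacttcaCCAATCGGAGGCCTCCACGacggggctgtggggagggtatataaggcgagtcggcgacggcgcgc
*Hsp90b1* (chr10:86705445-86705694, - strand): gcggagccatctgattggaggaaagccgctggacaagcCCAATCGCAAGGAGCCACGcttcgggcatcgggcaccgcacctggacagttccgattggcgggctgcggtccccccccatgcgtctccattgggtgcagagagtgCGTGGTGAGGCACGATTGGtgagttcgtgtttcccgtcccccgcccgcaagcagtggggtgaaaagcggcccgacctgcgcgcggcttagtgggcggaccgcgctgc
*Canx* (chr11:50325674-50325923, - strand): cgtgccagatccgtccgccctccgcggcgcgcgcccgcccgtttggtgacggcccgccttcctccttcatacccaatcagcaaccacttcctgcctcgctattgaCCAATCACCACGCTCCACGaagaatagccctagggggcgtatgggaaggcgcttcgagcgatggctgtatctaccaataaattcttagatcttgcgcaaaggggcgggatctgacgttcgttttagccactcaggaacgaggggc
*Pdia6* (chr12:17266339-17266588, + strand): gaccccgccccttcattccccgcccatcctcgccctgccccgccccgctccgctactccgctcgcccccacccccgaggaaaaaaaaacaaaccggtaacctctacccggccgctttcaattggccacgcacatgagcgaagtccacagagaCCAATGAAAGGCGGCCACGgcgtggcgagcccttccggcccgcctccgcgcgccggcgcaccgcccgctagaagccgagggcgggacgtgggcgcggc
*Uggt1* (chr1:36244303-36244552, - strand): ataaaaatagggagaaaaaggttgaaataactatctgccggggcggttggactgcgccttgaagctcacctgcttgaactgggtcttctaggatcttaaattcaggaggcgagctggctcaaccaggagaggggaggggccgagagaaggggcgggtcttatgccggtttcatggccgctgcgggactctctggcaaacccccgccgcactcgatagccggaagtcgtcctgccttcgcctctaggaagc

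Among the sensors, only *Ern1*, which encodes IRE1, was called. Its log2 values were 8.70, 8.43, 8.81 and 8.66 in the alcohol mice WA-811, WA-817, WA-833 and WA-836, against 8.31, 8.23, 7.97 and 8.42 in the control mice WC-820, WC-824, WC-834 and WC-840; values in each mouse are given in this order throughout. The groups were separated by a narrow margin, since WA-817 lay just above WC-840. The change was 0.41 ± 0.11 (SE), or 1.33-fold (adjusted p = 0.039, limma). *Ern1* lost its call in 9 of 17 alternative settings, where its adjusted p reached 0.118.

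*Eif2ak3*, which encodes PERK, had values of 7.06, 7.33, 7.64 and 7.43 in alcohol mice, against 7.63, 7.34, 7.23 and 7.15 in control mice. The lowest and the highest value were both from alcohol mice, and the change was 0.026 (95% confidence interval -0.29 to 0.34, adjusted p = 0.92, limma). *Xbp1*, the target of IRE1, had values of 9.58, 9.77, 9.85 and 9.60 in alcohol mice, against 9.71, 9.95, 9.62 and 9.90 in control mice. The groups overlapped and the change was -0.096 (interval -0.32 to 0.13, adjusted p = 0.552, limma). A probe-set reads all *Xbp1* mRNA together, so its spliced form was not measured.

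*Creb3l2*, a relative of ATF6 cut in the Golgi in the same way, had values of 6.49, 6.71, 6.96 and 6.79 in alcohol mice, against 7.08, 6.75, 6.73 and 6.67 in control mice. *Creb3l3*, the liver member of that family, which controls lipid and acute phase genes, had values of 10.21, 10.02, 10.02 and 9.81 in alcohol mice, against 10.08, 9.90, 10.02 and 10.05 in control mice. Both genes overlapped between the diets, with changes of -0.069 (interval -0.34 to 0.21) and 0.0011 (interval -0.21 to 0.21) and adjusted p of 0.747 and 0.997 (limma). *Atf6* itself had no probe-set named for it and is not analysed here.

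*Uggt1* encodes the glucosyltransferase that recognizes misfolded glycoproteins and returns them to calnexin and calreticulin. Its values were 9.18, 9.08, 9.29 and 9.20 in alcohol mice, against 8.89, 8.67, 8.81 and 8.65 in control mice. Every alcohol mouse lay above every control mouse, and the change was 0.43 ± 0.08 (SE), or 1.35-fold (adjusted p = 0.00935, limma). Its call was kept in all 17 alternative settings.

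*Sil1*, a nucleotide exchange factor of the chaperone BiP, had values of 9.14, 9.11, 9.14 and 9.25 in alcohol mice, against 8.92, 8.84, 8.82 and 8.74 in control mice. The alcohol mice lay close together and above all controls, with a change of 0.33 ± 0.07 (SE; adjusted p = 0.0137, limma). *Hyou1*, an HSP70-like chaperone that also exchanges nucleotide on BiP, had values of 10.08, 9.84, 10.43 and 10.04 in alcohol mice, against 9.74, 9.43, 9.77 and 9.07 in control mice. WA-833 was the highest and WC-840 the lowest by a wide margin, while WA-817 lay only slightly above WC-834. The change of 0.60 ± 0.17 (SE), or 1.51-fold, was the largest of the 34 tested members (adjusted p = 0.0471, limma) and lost its call in 10 of 17 settings.

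*Canx* encodes calnexin, the membrane-bound lectin chaperone of newly made glycoproteins. Its values were 9.89, 10.01, 10.08 and 9.94 in alcohol mice, against 9.84, 9.63, 9.71 and 9.54 in control mice. WA-811 lay just above WC-820, so the groups were separated by little, and the change was 0.30 ± 0.08 (SE; adjusted p = 0.0413, limma). This call was lost in 11 of 17 settings, more than for any other called member. *Calr*, which encodes the soluble partner calreticulin, overlapped between the diets, with a change of 0.084 (interval -0.19 to 0.36).

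*Hspa5* encodes BiP, the central ER chaperone that also holds the sensors inactive. Its values were 11.50, 11.38, 11.79 and 11.52 in alcohol mice, against 11.47, 11.20, 11.35 and 10.77 in control mice. WC-840 lay far below the other mice and WC-820 lay among the alcohol mice. The change was 0.35 (interval 0.0083 to 0.70, adjusted p = 0.148, limma; exact permutation p = 0.0571, two-sided, n = 4 each), and without WC-840 it was 0.21. *Hsp90b1*, the ER member of the HSP90 family, had a change of 0.14 (interval -0.070 to 0.34), and of 0.085 without WC-840.

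The remaining chaperones and cochaperones *Sdf2l1*, *Manf*, *Creld2*, *Dnajb9* and *Dnajb11* had changes between 0.25 and 0.35, and none was called. *Dnajb9* and *Dnajb11* encode J-domain partners of BiP, and the others are lumenal proteins known as targets of the UPR. Their intervals all included 0. The widest was that of *Sdf2l1* (-0.24 to 0.94). Single mice moved 4 of these changes by more than 1.5 times: *Sdf2l1* was at 0.11 without WC-840 and 0.57 without WC-820, *Creld2* at 0.16 without WC-840, and without WA-833 *Manf* was at 0.13 and *Dnajb9* at 0.095. *Dnajc3*, which encodes the inhibitor of PERK known as p58IPK, was read only by a probe-set that also carries the symbol *Ccdc58*. That probe-set gave 10.91, 10.98, 11.13 and 11.11 in alcohol mice, against 10.89, 10.57, 10.62 and 10.47 in control mice, a change of 0.39 ± 0.10 (SE; adjusted p = 0.0294, limma), and it cannot be assigned to either gene.

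Disulfide enzymes form and reshuffle disulfide bonds, and none of the 5 tested members was called. *Ero1l* (now *Ero1a*), the oxidase that supplies them with oxidizing equivalents, came closest, with 7.27, 7.63, 7.84 and 7.52 in alcohol mice, against 7.37, 7.02, 7.04 and 7.11 in control mice. WA-811 lay below WC-820, and the other alcohol mice lay above all controls. The change was 0.43 (interval 0.14 to 0.72, adjusted p = 0.0511, limma). *P4hb*, which encodes the protein disulfide isomerase PDI, did not overlap between the diets although its change was only 0.14, with 12.06 to 12.17 in alcohol mice and 11.93 to 12.02 in control mice (adjusted p = 0.174, limma). *Pdia3* and *Pdia4*, isomerases of the same family, had changes of 0.22 (0.11 without WA-833) and 0.26 (0.18 without WC-840), and *Pdia6* had -0.040 (interval -0.38 to 0.30). The second oxidase *Ero1lb* (now *Ero1b*) was removed by the filter on low values, at 3.72 to 4.27 in the 8 mice. *Pdia5* had no probe-set named for it.

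ERAD begins with the recognition of glycoproteins that failed to fold. *Os9* encodes a lectin that hands such proteins to the ubiquitin ligase. Its values were 10.64, 10.47, 10.40 and 10.47 in alcohol mice, against 10.22, 10.15, 10.09 and 10.23 in control mice. The groups were clearly apart, with a change of 0.32 ± 0.08 (SE; adjusted p = 0.0203, limma), and unlike in most members WA-833 was the lowest of the alcohol mice.

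*Edem1* and *Edem2* encode mannosidase-like proteins that mark glycoproteins for degradation by trimming their mannose. *Edem1* had values of 9.63, 9.61, 9.85 and 9.89 in alcohol mice, against 9.46, 9.35, 9.45 and 9.42 in control mice. *Edem2* had values of 8.80, 8.57, 8.87 and 8.70 in alcohol mice, against 8.56, 8.43, 8.30 and 8.40 in control mice. In both genes all alcohol mice lay above all controls, in *Edem2* with WA-817 next to WC-820. Both changes were 0.32, with SE of 0.08 for *Edem1* and 0.09 for *Edem2* (adjusted p = 0.0317 and 0.0398, limma). *Edem1* lost its call in 9 and *Edem2* in 10 of 17 settings. *Edem3* had no probe-set named for it.

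*Derl1* encodes a membrane protein of the channel through which ERAD substrates leave the ER. Its values were 9.29, 9.53, 9.57 and 9.45 in alcohol mice, against 9.12, 9.06, 9.12 and 9.14 in control mice. The control mice lay within a narrow range and all alcohol mice above it, and the change was 0.35 ± 0.08 (SE), or 1.28-fold (adjusted p = 0.017, limma). Its paralog *Derl2* overlapped between the diets, with a change of 0.045 (interval -0.19 to 0.28). *Derl3* was removed by the filter, at 4.71 to 5.87 in the 8 mice.

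*Sel1l* and *Syvn1* encode the adaptor and the ubiquitin ligase HRD1 at the core of ERAD. *Sel1l* had values of 9.95, 9.92, 10.26 and 9.98 in alcohol mice, against 9.91, 9.72, 9.74 and 9.59 in control mice. WA-817 lay just above WC-820, so the groups did not overlap, and the change of 0.29 did not pass the test (adjusted p = 0.0835, limma). *Syvn1* had a change of 0.12 (interval -0.21 to 0.44), with WA-833 at 8.40 and the other alcohol mice at 7.70 to 7.97, against 7.73 to 8.06 in control mice. *Herpud1*, which encodes a membrane component of the same complex, had a change of 0.061 (interval -0.24 to 0.36).

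*Sec61a1* encodes the pore-forming subunit of the translocation channel. Its values were 11.10, 11.09, 11.14 and 11.07 in alcohol mice, against 10.82, 10.53, 10.66 and 10.50 in control mice. The alcohol mice were nearly equal and the controls spread below them, with a change of 0.47 ± 0.08 (SE), or 1.39-fold, and the smallest adjusted p among the 34 tested members (0.00729, limma). The call was kept in all 17 alternative settings. *Ssr1*, a subunit of the translocon-associated complex, had 8.11, 8.19, 8.56 and 8.27 in alcohol mice, against 8.0, 7.89, 8.0 and 7.90 in control mice. *Sec63*, which assists entry into the channel, had 9.40, 9.34, 9.46 and 9.25 in alcohol mice, against 9.18, 9.18, 9.13 and 9.05 in control mice. Neither gene overlapped between the diets, yet with changes of 0.33 and 0.23 both stayed short of the threshold (adjusted p = 0.0534 and 0.0646, limma). The small channel subunit *Sec61b* had a change of -0.0075 (interval -0.31 to 0.29).

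**Figure D3:**
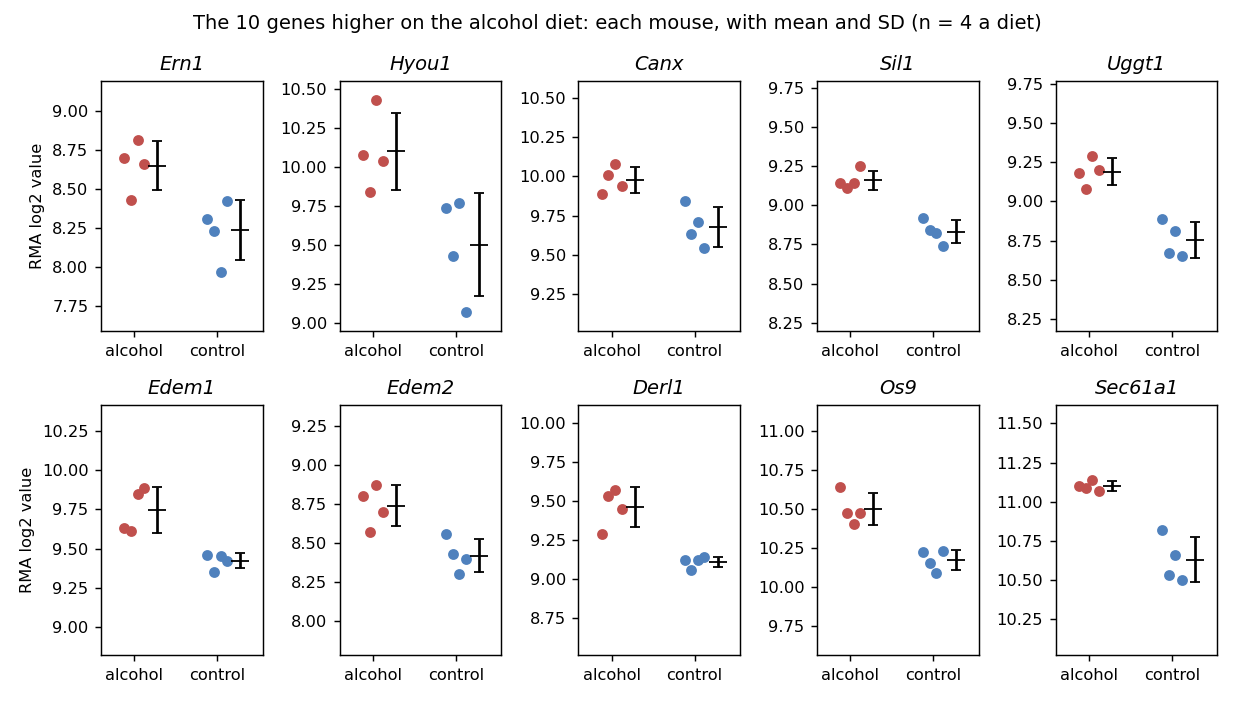
RMA log2 values of the 10 genes called higher, with 1 point for each alcohol mouse (red, left) and each control mouse (blue, right) and bars for the mean and SD (n = 4 a diet); every panel spans the same height on the log2 scale. No panel has overlap between the diets, with narrow gaps in *Ern1* and *Edem2* and wide gaps in *Uggt1* and *Sec61a1*.

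The mice of 1 diet differed from each other in the same order across much of the list. Among alcohol mice WA-833 was the highest in 28 of the 36 measured members (77.8%), although it was the highest in 19.4% of all probe-sets tested. WA-817 was the lowest of the alcohol mice in 23 members (63.9%, against 18.4% of all probe-sets tested). Among control mice WC-820 was the highest in 26 members (72.2%, against 35.0%) and WC-840 the lowest in 22 (61.1%, against 15.5%). This pattern was seen after the values had been examined, is given as a description, and concerns animals within each diet rather than the diets.

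Within the diets, *Sdf2l1*, *Creld2* and *Manf* had the widest spread of the tested members, and none of them was called. *Sdf2l1* had 7.94, 7.51, 8.15 and 7.84 in alcohol mice, against 8.18, 7.44, 7.64 and 6.78 in control mice. *Creld2* had 7.56, 7.34, 8.04 and 7.62 in alcohol mice, against 7.79, 7.14, 7.51 and 6.91 in control mice. In both genes WA-833 and WC-820 led their diets, and WA-817 and WC-840 were the lowest of theirs. *Manf* had 8.78, 8.66, 9.39 and 9.10 in alcohol mice, against 9.03, 8.55, 8.84 and 8.47 in control mice. *Dnajb9* had 10.14, 10.18, 10.89 and 10.47 in alcohol mice, against 10.34, 10.06, 10.17 and 10.10 in control mice. WA-833 was again the highest of all mice in both, and in *Dnajb9* the control mice other than WC-820 lay close together.

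The same order was seen in genes with and without the ERSE element shown above. Of the 7 tested members with an ERSE, WA-833 lay above the mean of the alcohol mice in 7 and WA-817 in 1, and WC-820 lay above the mean of the control mice in 7 and WC-840 in 0. Of the 22 tested members with a window and no ERSE, WA-833 lay above its mean in 19 and WA-817 in 3, and WC-820 in 20 and WC-840 in 5. Over all probe-sets tested, the median deviation from its diet's mean was -0.044 for WA-833, 0.030 for WA-817, 0.028 for WC-820 and 0.033 for WC-840. WC-820 thus lay above its mean in most probe-sets tested, so its high counts are not particular to these genes. WA-833, WA-817 and WC-840 deviated there in the direction opposite to that in the members. The median SD within a diet was 0.233 over the members with an ERSE, 0.163 over those with a window and no ERSE, 0.106 over the 10 called members and 0.143 over all probe-sets tested. A small spread favours a call, so the low SD of the called members follows in part from how they were chosen. No test was made of the difference between the genes with and without an ERSE.

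**Figure D4:**
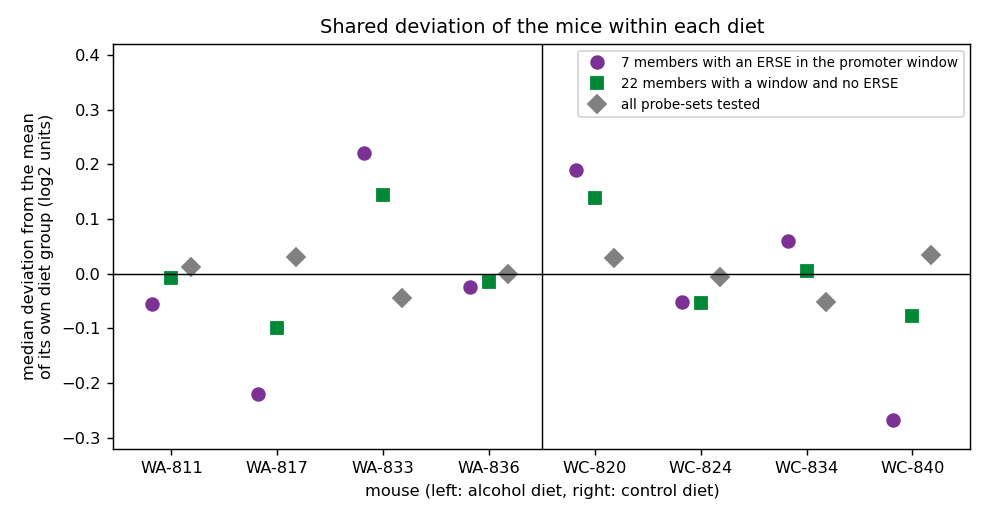
Median deviation of each mouse from the mean of its own diet (log2 units), over the 7 tested genes with an ERSE (circles), the 22 with a promoter window and no ERSE (squares) and all probe-sets tested (diamonds), alcohol mice left. WA-833 and WC-820 lie above 0 and WA-817 and WC-840 below 0 for both gene groups, and the circles of these 4 mice lie farthest from 0, at 0.22, 0.19, -0.22 and -0.27.

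Neighbouring steps of the secretory pathway were read through 7 further lists, of which 99 of 122 genes were measured and passed the filter. These lists too were chosen with earlier results of these data known, so their shares are descriptions. Of these 99 genes 22 were higher and 3 lower in alcohol-fed mice, against 10.2% and 5.98% of all probe-sets tested. With quantile normalization 17 were higher and 7 lower, against 8.62% and 8.03% of all probe-sets tested. With median centring 15 were higher and 9 lower, against 6.99% and 8.49%. Each of the 22, 17 and 15 includes *Sesn2*, which passed the filter through its alcohol mice. Transfer and trimming of N-glycans had the highest share, with 6 of 12 genes higher and none lower and a median change of 0.28. It held *Dad1* (0.72), *Stt3b* (0.61), *Magt1* (0.56) and *Ddost* (0.39), all subunits of oligosaccharyltransferase, which attaches the glycan to the protein. *Stt3b*, a catalytic subunit, had 9.74, 9.83, 9.82 and 9.91 in alcohol mice, against 9.31, 9.17, 9.29 and 9.07 in control mice. The gap between the diets was far wider than the spread within them (SE 0.08, adjusted p = 0.00245, limma).

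Of the other folding genes 5 of 22 were higher, including *Hspa13* (0.86), an HSP70 family member of microsomes, the prolyl hydroxylase subunit *P4ha1* (0.72), the disulfide reductase *Dnajc10* (0.50) and the prolyl isomerase *Fkbp14* (0.40), and 1 was lower, *Sdf2* (-0.38). *Hspa13* had 9.26, 9.33, 9.66 and 9.27 in alcohol mice, against 8.73, 8.55, 8.58 and 8.24 in control mice (adjusted p = 0.00404, limma), and the diets were far apart. Of the other ERAD genes 2 of 15 were higher, *Rnf139* (0.37) and *Ubxn4* (0.27), a share of 13.3% against 10.2% of all probe-sets tested. Both ERAD calls were lost with quantile normalization and with median centring, so the count is not read as a result about this list. Of the partners of the sensors 0 of 7 were called, with 3 of 7 at an unadjusted p under 0.05 in limma. *Selk*, a selenoprotein of the ERAD machinery removed by the filter, had 1.32, 1.59, 3.29 and 4.99 in alcohol mice, against 5.22, 5.43, 5.29 and 4.45 in control mice. Its change of -2.30 did not pass the test among all probe-sets (adjusted p = 0.158, limma).

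Of the other translocation genes 3 of 16 were higher and 2 lower (18.8% and 12.5%), against 10.2% and 5.98% of all probe-sets tested. The higher ones were *Srprb* (0.53), a subunit of the receptor of the signal recognition particle, and the translocon-associated *Ssr3* (0.49) and *Ssr2* (0.30). The lower ones were the signal peptidase subunit *Spcs1* (-1.61) and *Srp9* (-0.74), a subunit of the signal recognition particle. *Spcs1* had 8.09, 7.74, 8.87 and 9.62 in alcohol mice, against 10.06, 10.09, 10.41 and 10.18 in control mice. Its alcohol mice spread over a range far wider than that of the controls. With quantile normalization 4 genes of this list were lower and with median centring 5 were, against 8.03% and 8.49% of all probe-sets tested.

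The list named for outputs of PERK and its effector ATF4 held the largest rise among the tested genes of these lists. PERK activity was not measured, so a rise in this list is not assigned to PERK. Of 8 tested genes 3 were higher (37.5%), against 10.2% of all probe-sets tested. They were *Asns* (2.07), the asparagine synthetase, *Sesn2* (0.81), a stress-induced inhibitor of mTORC1 signalling, and *Atf4* itself (0.39), whose call was lost under both scalings. *Sesn2* passed the filter on low values through its alcohol mice, with 3 of its 4 control mice below the limit, so that its call does not count as support. For these reasons the count of 3 is not read as a result about this list. *Asns* had 8.39, 7.55, 7.59 and 8.14 in alcohol mice, against 5.74, 6.08, 5.71 and 5.87 in control mice (adjusted p = 0.000519, limma), so every alcohol mouse lay far above every control. *Ddit3*, which encodes the stress factor CHOP, had 8.12, 6.17, 6.70 and 6.39 in alcohol mice, against 6.98, 6.55, 6.46 and 6.78 in control mice. It stood out in WA-811 alone, and its change of 0.15 was not called (adjusted p = 0.823, limma). *Trib3*, a pseudokinase induced by CHOP, had 8.53, 7.14, 7.51 and 7.85 in alcohol mice, against 7.09, 7.15, 6.86 and 7.33 in control mice, again with WA-811 the highest. WA-811 thus led *Asns*, *Ddit3* and *Trib3*, whereas WA-833 led most of the chaperones.

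Of the genes of ER to Golgi transport 3 of 19 were higher (15.8%), against 10.2% of all probe-sets tested. They were the cargo receptor *Surf4* (0.41), *Mcfd2* (0.33) and *Lman1* (0.26), of which *Lman1* and *Mcfd2* form the receptor of clotting factors. Only the call of *Surf4* was kept with quantile normalization and with median centring, where 8.62% and 6.99% of all probe-sets tested were higher. The count is therefore not read as a result about this list.

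**Figure D5:**
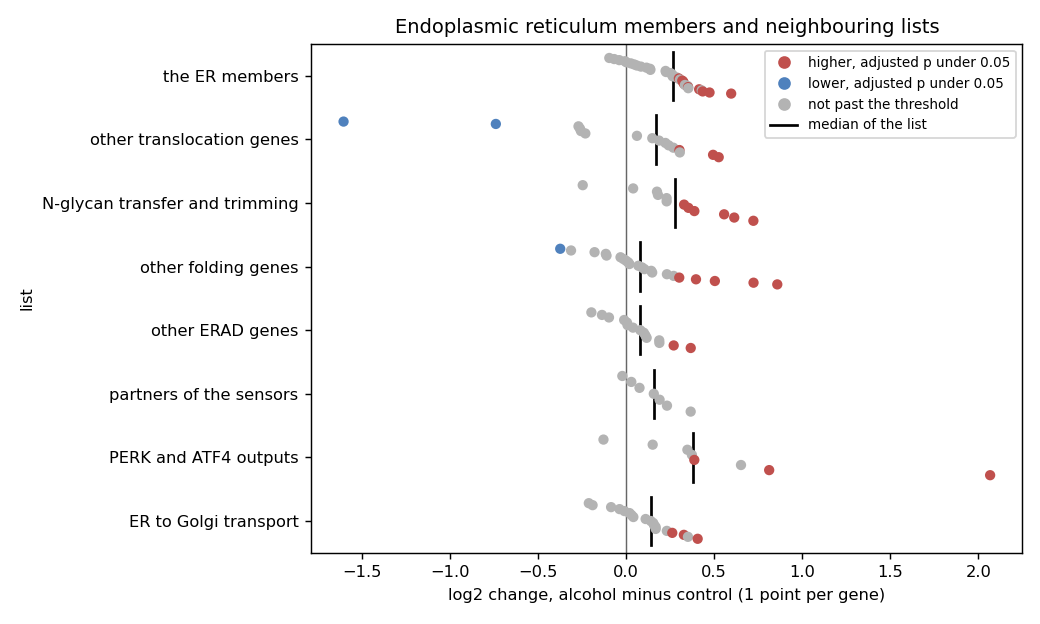
Log2 change of each tested gene, alcohol minus control, for the ER members and the 7 neighbouring lists, with 1 point for each gene (red higher, blue lower, grey not past the threshold) and a black line at the median of each list. The ER members and the N-glycan genes have medians of 0.26 and 0.28, *Asns* lies far right at 2.07 and *Spcs1* far left at -1.61.

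Markers of the cell types of the liver were read in the same way. The 3 measured hepatocyte markers were high in every mouse (10.59 to 13.58) and none was called, with 1 of 3 at an unadjusted p under 0.05 in limma. This was the transcription factor *Hnf4a*, with 10.93 to 11.31 in alcohol mice and 10.59 to 11.02 in control mice, a change of 0.34 (adjusted p = 0.0702, limma). None of 8 Kupffer cell markers was called, with 1 of 8 at an unadjusted p under 0.05 in limma, and no marker of B cells, T and NK cells or neutrophils passed the filter. Plasma cells, which hold much ER, had 1 of 5 markers above the filter, and it was not called, nor was the 1 marker of cholangiocytes or of pancreatic acinar cells that passed. Of 5 sinusoidal endothelial markers 2 were higher, *Lyve1* (1.23) and *Clec4g* (0.47), and the summed linear signal of the 5 was 3481 to 4139 in alcohol mice and 2694 to 3004 in control mice. All 5 changes lay above 0, against 60.0% of all probe-sets tested. At an unadjusted p under 0.05 in limma 4 of 5 were higher (against 20.5%), and 4 did not overlap between the diets (against 15.5%). The erythroid marker *Alas2*, the only 1 measured of 4, was lower (-2.07), with a linear signal of 116 to 323 in alcohol mice and 772 to 902 in control mice. Among 6 measured markers of stellate cells and fibroblasts *Lrat* was higher and *Reln* lower. The 5 stellate cell and fibroblast markers that passed the filter had no common direction, with 2 changes above 0 and 3 below. The called markers differed between the diets beside the ER genes, and their part in the result was not tested. The median of an array was 5.10 to 5.14 in alcohol mice and 5.04 to 5.08 in control mice.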

How the data were processed

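Total liver RNA of 8 mice was hybridized to Affymetrix Mouse Exon 1.0 ST arrays. The deposited values are log2 values that the authors obtained by RMA; the labels name the Affymetrix Expression Console and no version, and the genome build is not given in the sources used here. The final ethanol level follows the labels. Probe-sets were named through the platform annotation (14996 with 1 symbol, 1019 with several, 7317 with none), and 2 members were matched by an older symbol. A gene was read at its probe-set of highest mean, and no member had more than 1. Of 23332 probe-sets, 10430 were kept by the fourth-highest of their 8 values (at least 5.56), as many as in the study's methods, and 2 members were removed and read from the fit without a filter.

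Diets were compared in R 4.3.3 with limma 3.58.1 (lmFit, eBayes, 6 residual degrees of freedom), tested on simulated data. Values in each mouse are printed for all called members and all measured sensors and transcription factors, and for further genes chosen after their values were seen; of other lists up to 4 called genes of largest change are named, with *Ddit3*, *Trib3*, *Ssr2*, *Sdf2*, *Selk* and *Hnf4a* added after their values were seen. The members and lists were chosen with earlier results of these data known. Alternatives were another scaling (quantile normalization or median centring), no filter or one by the mean level, array weights, trended, robust or no moderation, the mean over probe-sets, other thresholds and leaving out each mouse. Mice were separate animals, and no array date was used. Precision was limited by 4 arrays a diet. Promoter sequences are those of RefSeq (GRCm38.p6).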

Additional observations from a re-analysis of the deposited data

Results flagged for a closer look

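A sample far from the rest was sought in 142 groups of 4 mice: the 36 measured members, the shared probe-set of *Dnajc3*, the called genes of the other lists and markers, and *Ddit3*, *Trib3*, *Atf3* and *Selk*, each on both diets. By Dixon's ratio, the gap of the farthest mouse over the range of its group, 4 groups held one, and chance flags about 1 group in 20. None of them was a group of the 40 listed genes. WA-833 stood above the other alcohol mice in *Ssr3* (ratio 0.89) and WA-836 in *Mcfd2* (0.941). WC-840 stood below the other control mice in *Magt1* (0.918), and WC-834 in *Rnf139* (0.856).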

How the results depend on the processing

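No ER member was called lower, and none passed the study's thresholds, under any of the alternatives run. The number called higher was 10 and moved to 2 at an adjusted p under 0.01, 2 without a filter, 5 without moderation and 5 with median centring, where 3.27%, 2.09%, 7.76% and 6.99% of all probe-sets tested were higher, against 10.2%. Leaving out 1 mouse gave 3 to 9, with 5 without WA-833, 5 without WA-836, 3 without WC-824, 4 without WC-834 and 6 without WC-840. With the other settings it was 7, with quantile normalization, to 14, at an adjusted p under 0.1. In these 2 settings 8.62% and 15.9% of all probe-sets tested were higher. *Uggt1* and *Sec61a1* kept their calls in all 17 settings and *Sil1* in all but that without a filter (adjusted p = 0.0526, limma); *Derl1* lost its call in 2 settings, *Os9* in 3 and the other 5 called genes in 9 to 11. No called gene changed sign. Over all probe-sets tested, 1059 were higher and 624 lower, against 899 and 838 with quantile normalization and 729 and 886 with median centring.

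Changes close to 0 had no stable sign. *Eif2ak3* was at -0.0085 with array weights, -0.017 with quantile normalization and -0.034 with median centring, *Creb3l3* at -0.012 with quantile normalization and -0.059 with median centring, *Derl2* at -0.015 with median centring and *Sec61b* at 0.0067 with array weights. Leaving out 1 mouse gave -0.065 to 0.13 for *Eif2ak3*, -0.14 to 0.022 for *Creb3l2*, -0.063 to 0.068 for *Creb3l3*, -0.0057 to 0.16 for *Calr*, -0.14 to 0.090 for *Pdia6*, -0.046 to 0.13 for *Herpud1*, -0.021 to 0.21 for *Syvn1*, -0.048 to 0.12 for *Derl2* and -0.13 to 0.075 for *Sec61b*. Median centring lowers every change by the same amount, because the array medians were higher in alcohol mice. The cause of the other shifts was not tested. Arrays have no count depth, and their number limits the precision.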
